A study of Mus musculus with 4 samples.

Results

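The albumin family genes Alb, Afp, Afm and Gc were placed in the topologically associating domains (TADs) called for cultured AML12 hepatocytes, 1 list from 2D culture and 1 from 3D culture. They are 4 of the 21755 protein-coding genes on the chromosomes that the TAD lists cover, and 4 of the 1260 on chromosome 5; they were chosen by name as a gene family, and the rule that defines them uses no measured value. In both cultures Alb, Afp and Afm lay in the same TAD of 240 kb, whose ends were at identical positions in 2D and 3D. Gc lay about 1 Mb away in a much longer TAD, which measured 800 kb in 2D and 760 kb in 3D. The border at the start of the Gc TAD stood 40 kb further along the chromosome in 3D and fell inside the gene itself.

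The 4 genes encode related plasma proteins that hepatocytes secrete. Albumin carries fatty acids and many other ligands and maintains the osmotic pressure of the blood. Alpha-fetoprotein (Afp) takes its place in the fetal liver and is shut down after birth, afamin (Afm) binds vitamin E and Wnt proteins, and the vitamin D-binding protein (Gc) carries vitamin D metabolites and captures free actin. A TAD is a stretch of chromosome in which sequences contact each other more often than they contact sequences outside it, and genes that share a TAD are more easily reached by the same enhancers. Borders between TADs often carry the DNA-binding protein CTCF.

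AML12 is an immortalized line of mouse hepatocytes. The study prepared in situ Hi-C libraries, which count ligated contacts between pairs of genomic positions, from 2 replicates of the 2D culture and 2 of the Matrigel-embedded 3D culture. All 4 samples had been arrested at the G1/S boundary with hydroxyurea at 1 mM. The exposure lasted 24 h in the 2D samples but 36 h in the 3D samples, so the culture and the length of the exposure cannot be told apart. The replicates were combined before TADs were called, which left 1 list of TAD positions per culture and no spread between replicates; no difference below has a replicate check or a p-value. The 2D list held 4467 TADs with a median size of 240 kb and the 3D list 4355 with a median of 280 kb, all on a grid of 40 kb bins of mm10. The lists hold neither read counts nor expression values, so the depth behind a border is unknown and the hepatocyte label was not checked against marker genes.

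The promoters introduce the members, since they show how each gene starts. The 250 bases before the RefSeq start of each gene are given 5′ to 3′ in the direction of transcription (RefSeq, GRCm38.p6). Capitals mark the letters of the CCAAT box, where general activators of transcription bind, and of the TATA box, which positions the start; a CCAAT box on the other strand is printed as its reverse complement.
Alb (chr5:90460620-90460869, plus strand): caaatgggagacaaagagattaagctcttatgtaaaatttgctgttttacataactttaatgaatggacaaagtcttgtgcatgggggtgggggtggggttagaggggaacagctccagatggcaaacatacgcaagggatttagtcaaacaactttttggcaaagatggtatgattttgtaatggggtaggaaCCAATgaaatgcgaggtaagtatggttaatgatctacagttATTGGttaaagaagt
Afp (chr5:90490464-90490713, plus strand): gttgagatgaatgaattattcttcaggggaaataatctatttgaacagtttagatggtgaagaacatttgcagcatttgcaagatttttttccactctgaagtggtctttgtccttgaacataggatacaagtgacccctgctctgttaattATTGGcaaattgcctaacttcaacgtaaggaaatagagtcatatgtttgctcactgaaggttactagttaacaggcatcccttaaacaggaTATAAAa
Afm (chr5:90518699-90518948, plus strand): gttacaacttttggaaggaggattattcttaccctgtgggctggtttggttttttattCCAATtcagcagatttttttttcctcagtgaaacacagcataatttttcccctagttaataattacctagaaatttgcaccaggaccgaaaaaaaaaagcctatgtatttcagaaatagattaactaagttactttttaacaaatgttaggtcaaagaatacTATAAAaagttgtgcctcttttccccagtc
Gc (chr5:89457899-89458148, minus strand): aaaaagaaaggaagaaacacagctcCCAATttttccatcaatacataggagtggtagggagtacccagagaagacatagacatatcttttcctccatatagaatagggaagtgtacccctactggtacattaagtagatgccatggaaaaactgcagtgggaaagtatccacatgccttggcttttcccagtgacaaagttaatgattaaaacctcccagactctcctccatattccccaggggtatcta

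The letters were searched on both strands of the 250 bases before and 50 bases after each start, for CCAAT and for TATAAA. The CCAAT box occurred in all 4 members and in 37.4% of the 32851 promoters of the same length in the RefSeq table, in which a gene can have more than one. Alb held it at -56 and, on the other strand, at -15, counted from the RefSeq start. Afp held it at -98, on the other strand, Afm at -192 and Gc at -225. Variants of the TATA box were not searched. Its exact form TATAAA was found in Afp and Afm and not in Alb or Gc, against 13.6% of all promoters. It began at -7 in Afp and at -30 in Afm. GENCODE places the Alb start 27 bases and the Afp start 23 bases further downstream and the Afm start 17 bases upstream, and the Gc start at the same base. Counted from the GENCODE start, the box began at -30 in Afp and at -13 in Afm.

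TGTTTAC, a site of the FOXA factors, which open chromatin at liver genes, was found in none of the 4 windows and in 3.65% of all promoters. Of the 20 other protein-coding genes from the Gc TAD to the Parm1 TAD, 16 had a promoter in the table, of which 3 held the CCAAT box (Epgn, Gm9958 and Pf4), 5 the TATA box and 1, Rassf6, the FOXA site. The neighbours 5830473C10Rik, Cox18, Cxcl5 and Ereg were not in the table. These matches describe letters, and binding was not measured.

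Alb (ENSMUSG00000029368.10) occupies chr5:90460897-90476602 on the plus strand, Afp (ENSMUSG00000054932.6) chr5:90490737-90508907 and Afm (ENSMUSG00000029369.17) chr5:90518932-90553543, also on the plus strand, and each has 15 exons in the GENCODE annotation of mm10. Their bodies measure 15.7, 18.2 and 34.6 kb. All 3 were inside the TAD at chr5:90360001-90600000 in 2D and in 3D, with no border in any of the gene bodies. The Alb start is 29.8 kb from the Afp start and the Afp start 28.2 kb from the Afm start, so the 3 starts span 58.0 kb of the 240 kb. Their positions in the TAD were 42.0%, 54.5% and 66.2% of the way from its start to its end. The 3 starts thus lay in the middle part of the TAD in both cultures, and the row of gene bodies reached closer to its end than to its start.

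The distance from a gene's start to the nearest border was 100.9 kb for Alb, 109.3 kb for Afp and 81.1 kb for Afm, the same in 2D and 3D. The median over all protein-coding genes was 53.6 kb in the 2D list, against 58.3 kb in the 3D list. In 2D, 69.1% of protein-coding genes had a start as close to a border as Alb or closer, 70.9% as close as Afp and 63.5% as close as Afm; in 3D the shares were 66.8%, 68.8% and 60.5%. All 3 starts were therefore farther from a border than the median gene, by more than 1 bin for Alb and Afp in both cultures and by less than 1 bin for Afm.

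Gc (ENSMUSG00000035540.12) occupies chr5:89417522-89457898 on the minus strand, facing away from the other members, with 13 exons over 40.4 kb. In 2D its TAD was chr5:89400001-90200000 and in 3D chr5:89440001-90200000. The end was the same in both lists and the start differed by 40 kb, exactly 1 bin, which is the smallest difference these lists can show. In 2D no border fell inside Gc, and its start was 57.9 kb from the nearest border, close to the median gene. In 3D the border, whose place a grid of 40 kb does not resolve to a single intron, was called in intron 6. It left exons 1 to 6 and 17.9 kb of the gene, including the promoter, in the TAD that Gc had in 2D, and put exons 7 to 13 and 22.5 kb, 55.7% of the gene, on the side of the neighbouring Slc4a4 TAD. The Gc start was then 17.9 kb from the nearest border, and 19.7% of protein-coding genes in 3D had a start as close or closer.

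**Figure D1:**
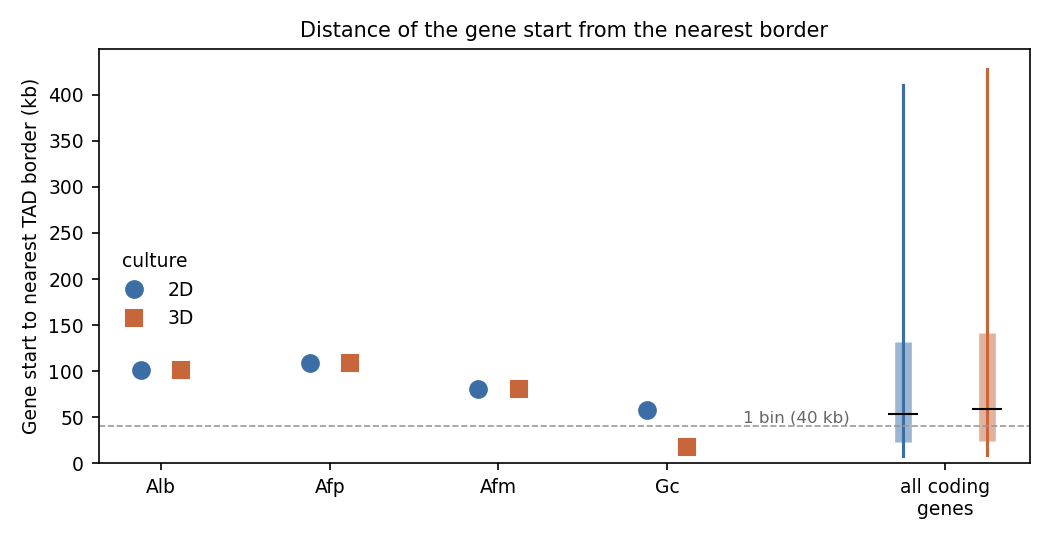
Distance in kb from the start of each member gene to the nearest TAD border in 2D (blue circles) and 3D (orange squares); for all 21755 protein-coding genes the black tick is the median, the thick bar the 25th to 75th percentile and the thin line the 10th to 90th, and the dashed line marks 1 bin. Alb, Afp and Afm have the same value in both cultures, and Gc is at 57.9 kb in 2D and 17.9 kb in 3D.

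The shares for all genes set these placements in proportion. All 4 members had their start inside a TAD in each list, as did 76.7% of all protein-coding genes in 2D and 83.5% in 3D. All 4 also lay in a TAD with a counterpart in the other list, defined as 1 TAD with both ends within 40 kb; among genes inside a TAD this held for 66.9% in 2D and 61.8% in 3D. For Alb, Afp and Afm the ends were identical, which held for 48.3% of the 15824 genes inside a TAD in both lists. The 3 genes share 1 TAD and count as 1 observation of a domain, not 3. With Gc, the 4 genes provide 2 domains, too few to set the family apart from other genes.

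A border inside the gene body was found for 0 of the 4 members in 2D, against 14.9% of all protein-coding genes, and for 1 of the 4, Gc, in 3D, against 13.8%. A border in 3D alone, the pattern of Gc, occurred in 3.07% of protein-coding genes, and the opposite pattern, a border in 2D alone, in 4.07%. Of the 2635 genes of 30 to 50 kb, the length range of Gc, 6.03% had a border in 3D alone. This length range was chosen after the Gc border had been seen. The pattern was thus uncommon but not rare, with 668 genes in all.

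Of the 6 pairs of members, the 3 pairs among Alb, Afp and Afm shared a TAD in both cultures, and the 3 pairs with Gc did not in either. Among all adjacent protein-coding genes 52.9% of pairs shared a TAD in both cultures, and 56.0% of the adjacent pairs whose starts lie 20 to 40 kb apart, as those of Alb and Afp and of Afp and Afm do. The Gc start is 1003 kb from the Alb start. The same 2 borders, at 90200000 and 90360000, separated them in 2D and in 3D, and between these borders lay a TAD of 160 kb with the single protein-coding start of Cox18, which encodes a factor that inserts a cytochrome c oxidase subunit into the mitochondrial inner membrane.

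**Figure D2:**
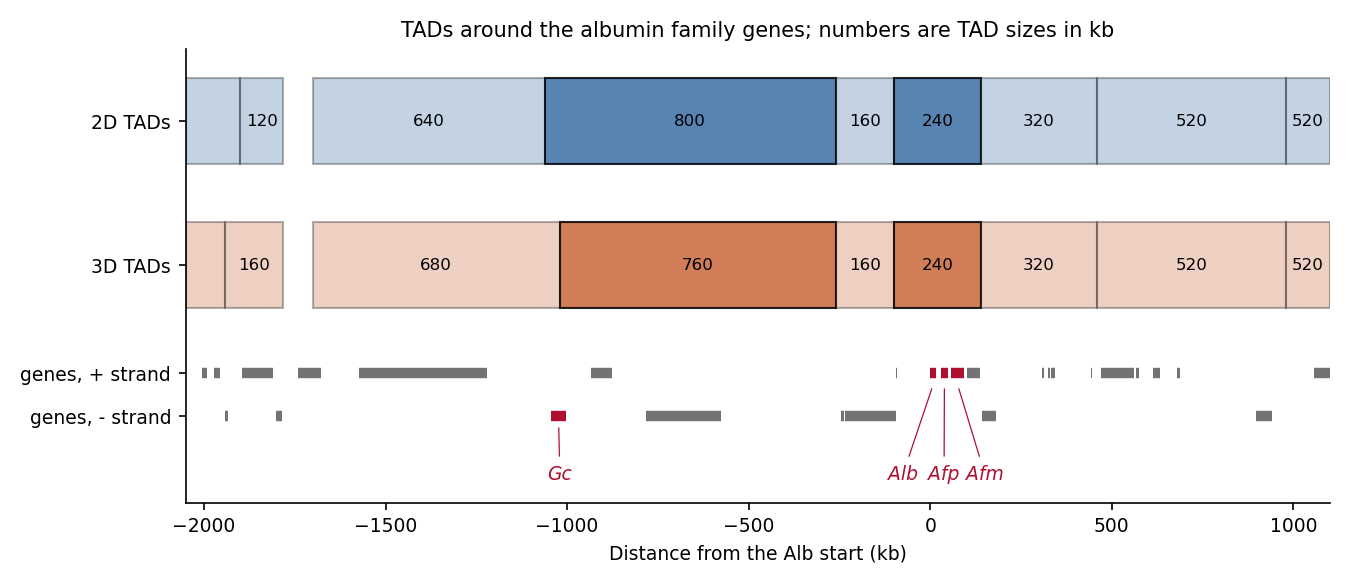
TADs in 2D (blue) and 3D (orange) around the family, drawn to scale by distance from the Alb start in kb, with TAD sizes in kb, dark fill for TADs that hold a member and gene bodies below by strand (members in red, other protein-coding genes in grey). The 240 kb TAD of Alb, Afp and Afm and the 160, 320 and 520 kb TADs beside it have the same ends in both lists, whereas the TAD of Gc measures 800 kb in 2D and 760 kb in 3D.

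The Alb TAD held 6 protein-coding starts in each list. Beside the 3 members these were Ankrd17, an ankyrin repeat protein gene, the predicted gene Gm9958, and 5830473C10Rik, which follows Afm on the same strand. TADs with at least 6 protein-coding starts numbered 750 of 4467 in 2D and 914 of 4355 in 3D. The Ankrd17 start was 6.58 kb inside the TAD, and its body of 139 kb ran out across the border at 90360000 in both cultures. At the other end 5830473C10Rik, at chr5:90561107-90597871, ended close to the border at 90600000 without crossing it, and its start was 38.9 kb from that border. With a size of 240 kb the TAD was an ordinary one: 56.4% of the TADs in 2D and 49.8% in 3D were no longer.

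The lengths of the coding exons were compared among the members and with 3 neighbours, 5830473C10Rik, Npffr2 and Rassf6, exon by exon at the same rank from the start codon. Alb, Afp, Afm and 5830473C10Rik each have 14 coding exons, and Gc has 12. Counted from the start codon, coding exons 4 to 10 of Alb, Afp, Afm and 5830473C10Rik had the same 7 lengths, 212, 133, 98, 130, 215, 133 and 98 bp. Over all 14 exons, 10 were equal in length between Alb and Afp, 10 between Alb and Afm, and 9 between Afp and Afm. With 5830473C10Rik, 9 were equal for Alb, 11 for Afp and 8 for Afm. Gc shared 5 of 12 lengths with Alb, 4 with Afp and 6 with Afm, among them exon 4 with 212 bp and exon 5 with 133 bp. Npffr2 and Rassf6 had no exon equal in length to that of the same rank in any of the 4 members. However, Npffr2 has only 3 coding exons and Rassf6 has 10, so later ranks were not compared. At the 3 ranks of Npffr2, Alb (79, 58 and 133 bp) and Afp (85, 52 and 121 bp) also had no equal length. The result for Npffr2 therefore does not set the family apart from it. The 4 genes with the nearly equal exons lay side by side inside the Alb TAD in both cultures.

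**Figure D3:**
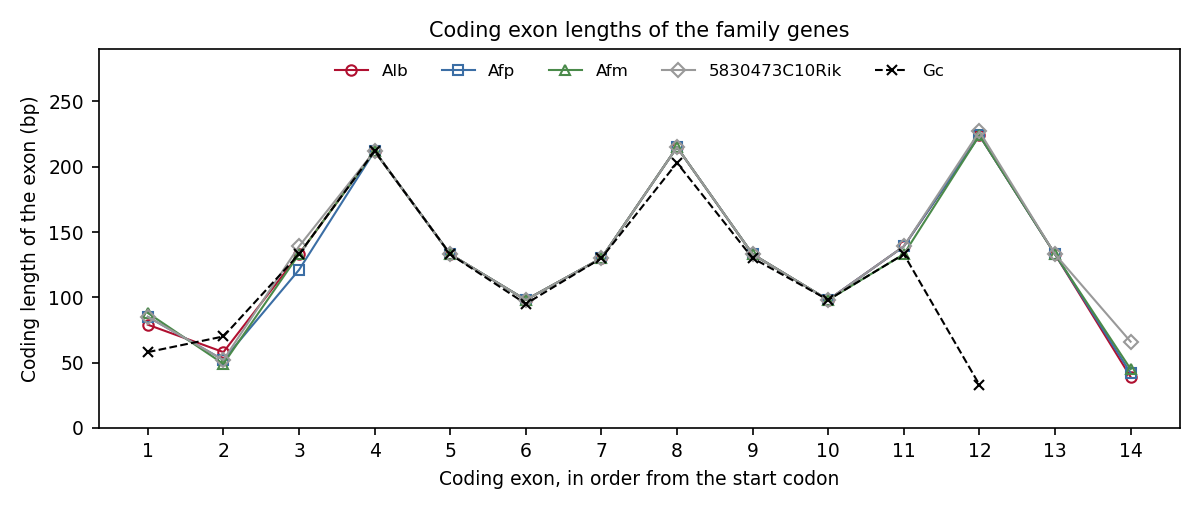
Coding length in bp of each coding exon, in order from the start codon, for Alb (red circles), Afp (blue squares), Afm (green triangles), 5830473C10Rik (grey diamonds) and Gc (black crosses, dashed line). The first 4 genes coincide from exon 4 to exon 10, and Gc rises from exon 1 to exon 2, where the others fall, follows their rises and falls from exon 3 to exon 11 and ends at exon 12.

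The Gc TAD held 3 protein-coding starts in each list. Npffr2 encodes a receptor for neuropeptide FF, with its start 127 kb from the nearest border in 2D and 87.4 kb in 3D. Adamts3, a protease that processes procollagen, had its start 317 kb from a border in both. Sizes up to that of the Gc TAD were found for 83.4% of the TADs in 2D and 82.4% in 3D, so it was among the longer ones in both lists. Before it lay the TAD of Dck, which encodes deoxycytidine kinase, and Slc4a4, which encodes a sodium bicarbonate cotransporter. That TAD began at chr5:88760001 in both lists and measured 640 kb in 2D, and at 680 kb in 3D it had gained the bin that the Gc TAD lost.

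Beyond the Alb TAD lay a 320 kb TAD at chr5:90600001-90920000 with Rassf6 and 7 genes of the CXC chemokine family (Cxcl5, Ppbp, Pf4, Cxcl3, Cxcl15, Cxcl1 and Cxcl2), which attract leukocytes or are released by platelets. The next TAD, of 520 kb, held Mthfd2l, an enzyme gene of mitochondrial folate metabolism, and the epidermal growth factor receptor ligands Epgn, Ereg, Areg and Btc, and another of 520 kb held Parm1. From the Cox18 TAD to the Parm1 TAD, 5 abutting TADs over 1760 kb had identical ends in 2D and 3D. Such unbroken runs of identical TADs numbered 1085 in the lists, with a median of 1 TAD, and 55 of them, 5.07%, had at least 5 TADs. These longer runs held 322 of the 2066 identical TADs, or 15.6%, and the longest run had 11. The run around Alb was therefore on the long side, and 3 runs of at least 5 were found on chromosome 5 alone.

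Within 1 Mb of the family, from 1 Mb before Gc to 1 Mb after Afm, each list had 9 borders. Of these, 7 were at the same position in both lists and 2 were exactly 40 kb apart. The first displaced border was the start of the Gc TAD, at 89400000 in 2D and 89440000 in 3D. The second lay nearly 2 Mb before Alb, at 88560000 in 2D and 88520000 in 3D, and moved the starts of Jchain, the joining chain of polymeric immunoglobulins, and Utp3 into the TAD of Rufy3 and Grsf1 in 3D. Its 3D position lay inside the Jchain body, close to the end of that gene. Both displaced borders were thus called inside a gene in 3D alone, but a grid of 40 kb does not resolve such positions. The 2 displacements were in opposite directions along the chromosome. An 80 kb stretch at chr5:88680001-88760000, with the start of Mob1b, was assigned to no TAD in either list.

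All 9 borders therefore had a partner within 1 bin, a share of 100% with a 95% Wilson interval of 70.1 to 100% that covers counting error only. On chromosome 5 as a whole the share was 77.4% of 381 borders in 2D and 88.0% of 332 borders in 3D, and over all chromosomes 81.9% of 6056 and 88.1% of 5563. All 4 of these shares lie inside the interval for the locus, so the 9 borders do not set it apart. The share displaced by exactly 40 kb was 22.2% at the locus, against 17.1% (2D) and 18.7% (3D) on chromosome 5. Widening the window to 2 Mb on each side added 3 borders of the 2D list with no partner within 40 kb, at 92040000, 92160000 and 92480000, all of them beyond Parm1. There 12 of 15 borders in 2D and 12 of 12 in 3D had a partner.

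**Figure D4:**
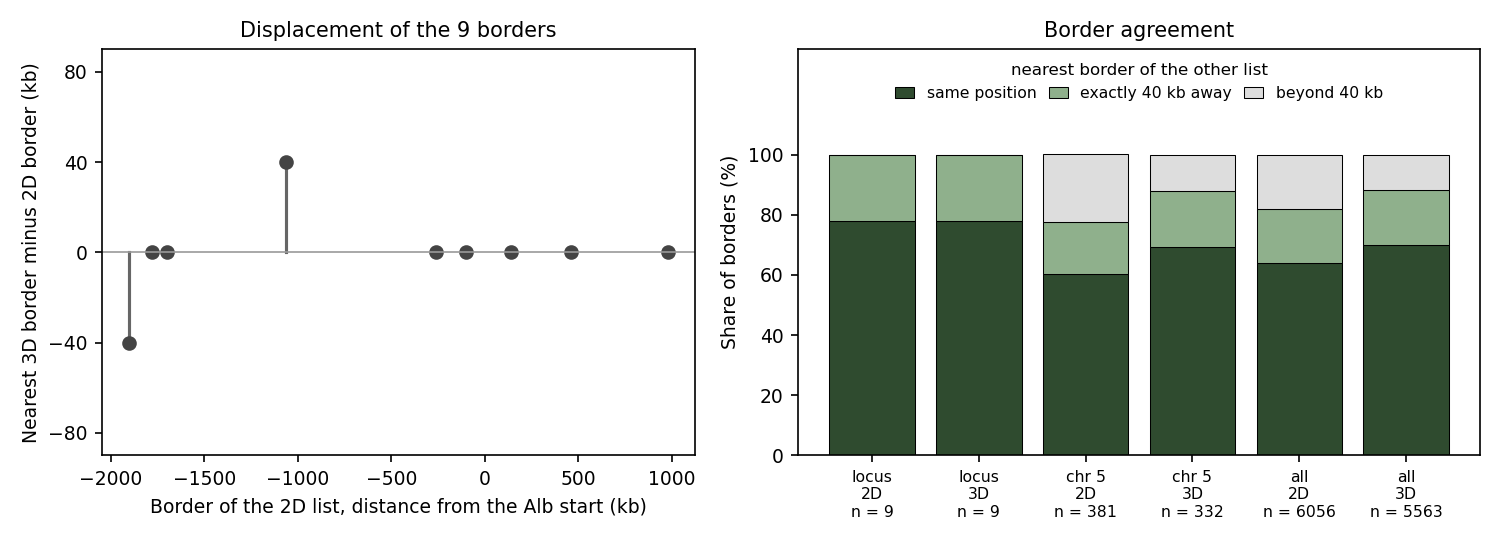
Left, the displacement in kb of the nearest 3D border from each of the 9 borders of the 2D list near the family, by distance from the Alb start; right, the share in percent of borders whose nearest border in the other list is at the same position, exactly 40 kb away or farther, for the locus, chromosome 5 and all chromosomes. The 7 borders at 0 include all those of the Alb TAD and its next neighbours, and none of the 9 is displaced by more than 40 kb.

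The sequence at the borders was searched for the 12-letter core of the CTCF binding consensus on both strands, with CTCF binding itself not measured here. A match lay within 40 kb of 52.9% of the borders in 2D and 52.9% in 3D, and of 29.1% of all 64105 positions of the 40 kb grid. The border at 90600000, behind 5830473C10Rik, had 1 match at a distance of 1.66 kb. The border at 90360000 had 2, which lay 23.3 and 34.0 kb away inside the Alb TAD. The border at 90200000 had 3, at distances from 3.33 to 13.9 kb, of which 2 lay in repeats. The Gc border had 1 match within 40 kb at its 3D position and 0 at its 2D position. The other displaced border had the reverse, 0 at 88520000 in 3D and 1 at 88560000 in 2D. The match at 88560000 lay in a repeat, whereas the match at the Gc border did not. Of the other shared borders in the window, 90920000 had 5 matches, the most of all. However, 4 of them were copies of the same core side by side in intron 3 of Mthfd2l, 31.6 to 31.7 kb from the border. The border at 88680000 had 2, of which 1 lay in a repeat, and 88760000 and 91440000 had 0. The match at the Gc border lay in intron 1 of Gc, 15.7 kb from the 3D border and so more than 40 kb from the 2D one. The matches outside repeats within 40 kb of the borders of the Gc and Alb TADs are given with the core in capitals. They are the candidates a binding map would be checked against (GRCm38, 5′ to 3′ on the strand named).
Gc intron 1 (chr5:89455709-89455738, plus strand): cacttccaaCCAGCAGGGGGCatgcccaga
Cox18 TAD, near its border with the Gc TAD (chr5:90203317-90203346, plus strand): ttctactagCCACTAGAGGGCagtgttggg
Alb TAD, upstream of Alb (chr5:90383308-90383337, minus strand): gagatatctCCAGTAGGGGGCcaccttccc
Alb TAD, upstream of Alb and nearer to it (chr5:90393988-90394017, plus strand): tttggcaagCCACTAGATGGCaacgttttt
Chemokine TAD, near its border with the Alb TAD (chr5:90601647-90601676, plus strand): catatgttgCCAGCAGAGGGCgtactgtaa

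The base composition of the 2 TADs was not extreme, although both were below the median in GC content. In 2D the Alb TAD stood at percentile 27.4 of all TADs for GC content and the Gc TAD at percentile 22.0. The GC content was 41.2% in the Alb TAD and 40.6% in the Gc TAD of either list, against a median TAD of 43.5% in 2D and 43.6% in 3D. Repeats covered 28.6% of the Alb TAD and 33.6% (2D) or 32.8% (3D) of the Gc TAD, with medians of 29.6% and 29.8%. MboI, the enzyme that cut the chromatin for the Hi-C libraries, has 97 sites per 40 kb in the Alb TAD and 99.0 (2D) or 98.3 (3D) in the Gc TAD, close to the medians of 97.8 and 97.9. Neither TAD was thus poor in sites for the assay.

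Each of 3 other clusters of genes for secreted liver proteins, chosen for comparison with earlier results known, lay in 1 TAD with a counterpart; as 3 domains beside shares of 66.9% (2D) and 61.8% (3D) of all genes inside a TAD, they show no trait of such clusters. The fibrinogen genes Fga, Fgb and Fgg, which encode the chains of the clotting protein, shared a 1880 kb TAD at chr3:81920001-83800000 with identical ends in both lists, as the Alb TAD had. The lipoprotein genes Apoa1, Apoc3, Apoa4 and Apoa5 shared a TAD that began at chr9:45960001 and measured 320 kb in 2D and 360 kb in 3D. The 23 Serpina genes, protease inhibitors and their relatives, shared a TAD that began at chr12:103480001 and measured 1480 kb in 2D and 1440 kb in 3D. In these 2 clusters 1 end differed by 1 bin, as in the Gc TAD. The displaced end crossed no gene of either cluster, whereas in 3D it crossed Gc.

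Genes that regulate the family or handle its products were placed in the same way, 12 in all. The TAD had identical ends for 4 of them: Foxa2, Cebpa, Zbtb20, which represses Afp after birth, and Cubn, a receptor that recovers albumin and vitamin D-binding protein in the kidney. For Hnf4a, Foxa1, Nr5a2 and Lrp2, which encodes the partner receptor of cubilin, both ends were within 40 kb. The Lrp2 TAD began at chr2:69480001 in 2D and at chr2:69520001 in 3D, and this displaced end lay inside the Lrp2 body in both lists, and Cubn also had 1 border inside its body in each. Foxa3 had a counterpart from the 2D list alone, because its 3D TAD was another one. Cebpb and Zhx2, a second postnatal repressor of Afp, had no counterpart in either direction, and Fcgrt, which encodes the receptor that spares albumin from degradation, lay outside TADs in both lists. Of the 11 genes inside a TAD, 9 had a counterpart in 2D and 8 in 3D, beside the 66.9% and 61.8% of all protein-coding genes inside a TAD, and the 4 with identical ends stand beside 48.3% of genes; with so few genes the list is not set apart from the rest. The Zhx2 TAD measured 360 kb in 2D, against 440 kb in 3D. The Zbtb20 TAD measured 1080 kb in both.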

How the data were processed

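In situ Hi-C was performed on AML12 cells with 2 replicates per culture. The deposited values are positions: the start and end of each TAD in mm10. According to the methods of the study, the authors mapped the reads with Bowtie 2 (2.2.9), combined the replicates, normalized contacts in 40 kb bins with ICE, equalized the depth of each chromosome between cultures and called TADs with Armatus at a gamma of 0.8. Combining the replicates hides their spread, and a bin of 40 kb is the finest difference a list can show.

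Genes were placed by their start in GENCODE release M21 (GRCm38, the build of mm10), using Python (3.11.15), numpy (2.4.6) and matplotlib (3.10.9). A border is a distinct TAD start or end; coordinates are 1-based. The measures of border agreement, TAD counterparts and placement inside a TAD were tested on 4000 simulated TADs, and 6 of 6 returned the known values. Placement outside TADs and the other measures were not tested in this way. The genes named are the members, all protein-coding genes in their TADs and the next ones, 12 regulators and receptors, and 3 comparison clusters, with 1 item of the rule not reported here; Parm1, Jchain, Utp3, Rufy3, Grsf1, Mob1b, Mthfd2l and the ligands named with it lie farther out and were named after the borders had been seen. Members and lists were chosen with earlier results of these data known. Promoters come from RefSeq (GRCm38.p6). Alternatives covered border distance, placement, TAD size, window and chromosomes.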

Additional observations from a re-analysis of the deposited data

How the results depend on the processing

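Of 62 values under the other settings listed, 45 stayed within the counting interval of the reported share (for member counts, within 1.5 times). The other 17 moved, and the 4 values under settings added after seeing the data all moved. Whether a result reversed was not assessed. The members' counts did not move, though Gc left its TAD in 3D when the whole gene body had to fit (3 of 4 members) and had no counterpart when ends had to be identical (3 of 4). The share of protein-coding genes whose TAD has a counterpart was 45.8% (2D) and 42.1% (3D) with identical ends, 76.3% and 72.3% within 80 kb, 71.3% and 66.0% with 80% reciprocal overlap, 88.6% and 86.0% with 50% overlap, 61.9% and 57.6% on chromosome 5, and 63.3% in 3D over all annotated genes. The share of chromosome 5 borders with a partner was 60.4% (2D) and 69.3% (3D) at the same position, 86.6% and 94.9% within 80 kb, 72.0% and 63.7% where TADs meet, and 76.5% in 3D for TADs of at least 200 kb. Adjacent genes shared a TAD in both cultures in 53.8% of pairs on autosomes, 56.0% with starts 20 to 40 kb apart and 48.8% on chromosome 5. No paired analysis was possible because the replicates were combined before TADs were called; for the same reason no replicate could be left out. The authors set the depth of each chromosome equal in both cultures; the lists carry no counts, so the limit that depth sets on a single border was not tested.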
